A study of Mus musculus with 24 samples.

Results

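The group described here is 10 genes of latent transforming growth factor beta (TGF-beta), out of 16233 in the deposited table of mouse inguinal white adipose tissue, a fat depot under the skin. The 10 genes were chosen by symbol: the docking protein Lrrc32, the ligands Tgfb1, Tgfb2 and Tgfb3, the latent TGF-beta binding proteins Ltbp1, Ltbp2, Ltbp3 and Ltbp4, and the intracellular regulators Smad7 and Skil. Lrrc32 was selected on its own values, since it had the smallest p of the exercise by time interaction in these libraries. Its values in that contrast and in the contrasts that make it up are therefore given as a description, with no test. The other 9 genes came with it by function.

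The study asked how the time of day alters the response of fat tissue to exercise. All animals were male C57BL6 mice, 10 to 11 weeks old by the design text, with no transgene or drug given in the labels. RUN mice exercised for 1 hour and SED mice spent 1 hour on a sham treadmill, either at ZT3 (early rest phase, lights on) or at ZT15 (early active phase, in the dark under red light), where ZT counts hours from lights on. Each of the 4 groups had 6 libraries, named here by time, treatment and a number that is not meant as a pairing, as in ZT15_RUN_5. No label states that the libraries come from separate mice, so p-values measure the spread between libraries, which may be technical in part. The hour after the bout is not given either.

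TGF-beta ligands are secreted in a latent form, held inactive by their own propeptide. The LTBPs tie this complex to fibrillin and other fibres of the matrix, whereas Lrrc32 (also called GARP) holds it on the surface of cells such as regulatory T cells, platelets and endothelium. Proteases, integrins or thrombospondin 1 then free the ligand, which signals through receptor kinases to SMAD transcription factors. In fat, TGF-beta signalling is known for restraining the formation of adipocytes and for promoting fibrosis.

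Levels are the deposited signal, which is CPM after scaling of the library size (scaled CPM, the reads of a gene per 1 M reads of the library), and differences are log2 differences ± SE from limma on log2(level + 1). The 24 libraries held 18.5 to 34.7 M reads in listed genes, and the 10 genes were covered by 37 to 7339 reads in a library. The adipocyte markers of the labelled tissue were abundant, with 8 genes that summed to 9773 or more in every library. In whole tissue, fewer cells of a type and less RNA per cell cannot be told apart. Libraries stood apart in their content of other tissues. The B cell receptor gene Cd79a was at most 1.33 in 21 libraries, but 14.1 in ZT15_SED_3, 54.6 in ZT15_SED_5 and 99.2 in ZT3_RUN_4. Myh4, a fast muscle myosin, ranged from 0.631 to 22113. Tsc22d3, a glucocorticoid-induced gene, was at 390 in ZT3_SED_1 and at 129 to 189 in the other sham libraries at ZT3, and at 127 in ZT3_RUN_1 and 299.8 to 395 in the other exercised libraries at ZT3. Each of these 2 libraries thus lay with the other ZT3 group, against its label. Leaving both out gave the same calls among the 10 genes in all 7 comparisons.

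**Figure D1:**
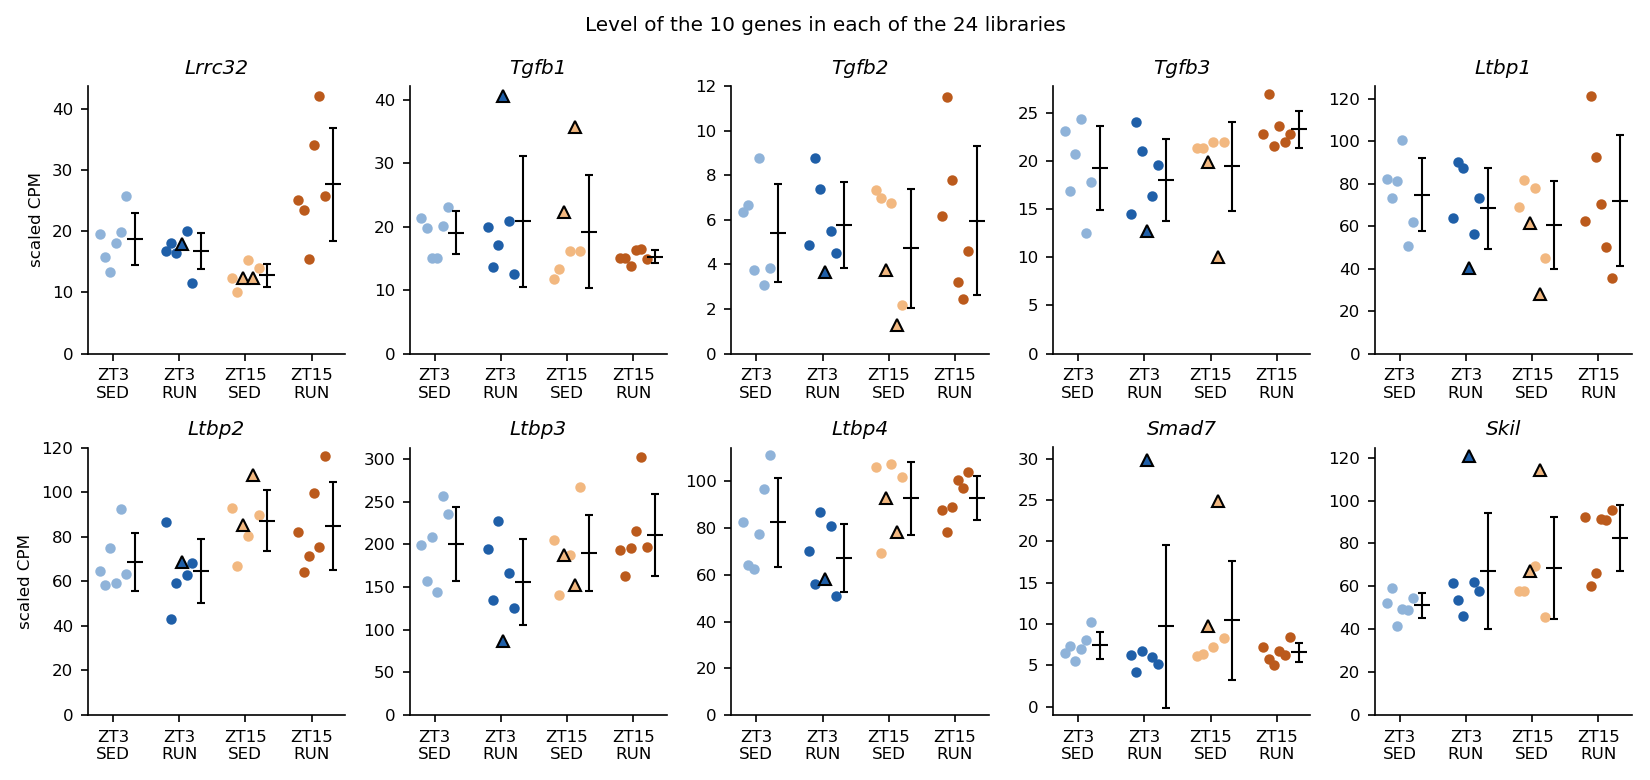
Level of each of the 10 genes (scaled CPM, linear axis) in every library by group, with the group mean and SD as bars; triangles with black edges are the 3 libraries rich in Cd79a. Lrrc32 in ZT15 RUN (15.5 to 42.2) lies above all of ZT15 SED (9.99 to 15.3), and the highest points of Tgfb1, Smad7 and Skil are triangles.

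Per kilobase of exon, which allows levels to be compared between genes, Ltbp3 was highest with a level of 20.9 ± 5.35 (SD, n = 24), followed by Ltbp4 at 13.0 ± 2.72 and Ltbp2 at 9.34 ± 2.13. Skil (6.95 ± 2.24), Ltbp1 (6.46 ± 2.04) and Tgfb3 (5.93 ± 1.25) formed a middle range whose neighbours lay within 1 SD of each other. Lrrc32 stood at 4.05 (2.13 to 8.99 over the libraries) and Tgfb1 at 3.69 ± 1.36, again within the spread. Smad7 had a level per kilobase of 1.89 ± 1.33 and Tgfb2 the lowest, 0.944 ± 0.425. Among the ligands the order was thus Tgfb3, Tgfb1, Tgfb2, and among the binding proteins Ltbp3, Ltbp4, Ltbp2, Ltbp1.

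Lrrc32 was at 12.4, 9.99, 12.4, 15.3, 12.4 and 14.1 in the 6 sham libraries at ZT15 and at 25.2, 23.4, 15.5, 34.2, 42.2 and 25.8 in the 6 exercised ones. All 6 exercised libraries were above the highest sham library, ZT15_RUN_3 by little. Such a gap between the ranges at ZT15 was found for 1.75% of all genes and, among the 10 genes, for Lrrc32 alone. At ZT3 the values were 19.6, 15.8, 13.3, 18.1, 20.0 and 25.8 after sham and 16.8, 18.0, 16.4, 17.9, 20.1 and 11.5 after exercise, and these ranges overlapped. In the order of the means, ZT15 SED was lowest (12.8 ± 1.81, SD, n = 6), then ZT3 RUN (16.8 ± 2.89), ZT3 SED (18.8 ± 4.24) and ZT15 RUN (27.7 ± 9.24). The middle pair differed by less than their spread.

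As a description, the exercise difference of Lrrc32 was 1.01 ± 0.18 at ZT15, 2.01-fold, and −0.14 ± 0.18 at ZT3, which gives an interaction of 1.15 ± 0.26. The low sham level at ZT15 was part of this: ZT15 minus ZT3 was −0.51 ± 0.18 after sham and 0.65 ± 0.18 after exercise. The differences averaged over both times or both treatments are orthogonal to the interaction in this balanced layout, but their tests use the same spread between libraries, on which the choice of Lrrc32 also rested, so their p-values are not independent of that choice. Exercise averaged over times gave 0.43 ± 0.13 (adjusted p = 0.186, where 0.142% of all genes were called). ZT15 minus ZT3 averaged over treatments gave 0.07 ± 0.13 (adjusted p = 0.813).

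Cell types known to carry Lrrc32 gave the following values beside this gene. At ZT15 the 12 endothelial markers were all above 0 after exercise with a median difference of 0.19, and none was called. Their summed level was 906 to 1171 in sham and 983 to 1432 in exercised libraries. Of 6 platelet genes fixed, Gp9 and Gp6 were not listed; the 4 listed had a median difference of 0.08, and Pf4, a platelet chemokine, was at 22.4 ± 9.36 after sham and 25.9 ± 7.11 after exercise. Of 7 regulatory T cell genes 1 was above 0. Foxp3, their defining factor, was at 2.91 ± 2.63 after sham (median 1.80, with 8.17 in ZT15_SED_5) and 1.51 ± 0.466 after exercise (median 1.47). Lymphocyte markers were lower (0 of 12 above 0, median −1.61), and their sum reached 913 in ZT15_SED_5 against 8.53 to 17.7 in the exercised libraries. All 10 muscle markers were above 0 (median 0.97), with sums from 24.1 to 38942 after sham and from 162 to 43183 after exercise. Above 0 were also 7 of 8 fibroblast genes (median 0.21) and 7 of 8 smooth muscle and pericyte genes (0.14). So were 6 of 8 adipocyte (0.17), 6 of 6 Schwann cell (0.51) and 6 of 6 thermogenic fat genes (0.43). Of 7 macrophage genes 3 were above 0 (median −0.01). A small rise was thus not particular to endothelial markers. The marker differences include ZT15_SED_3 and ZT15_SED_5, the sham libraries rich in Cd79a. Without the libraries rich in Cd79a the exercise difference of Lrrc32 at ZT15 was 0.99, and without the 3 libraries rich in Ucp1 and Myh4 it was 1.03.

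**Figure D2:**
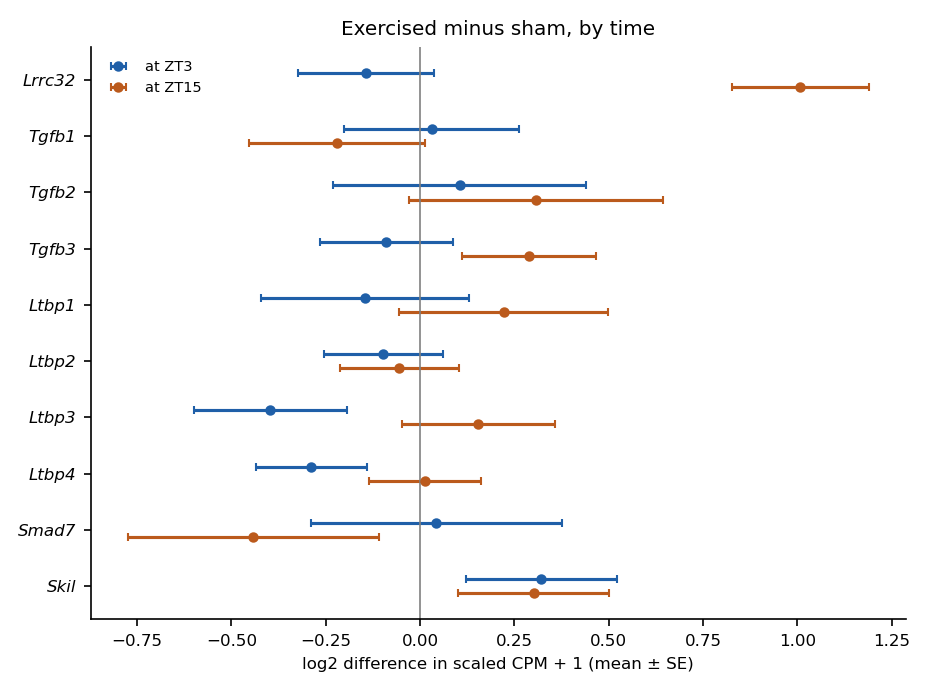
Exercised minus sham in log2 of the level + 1, mean ± SE from limma, at ZT3 and at ZT15 for the 10 genes. Lrrc32 at ZT15 (1.01 ± 0.18) lies farthest from 0, and the other 9 genes lie between −0.44 and 0.31 at ZT15.

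Among the other 9 genes, 0 were called for exercise at ZT3 (0% of all genes were), 0 for exercise at ZT15 (0.641%) and 0 for the interaction (0%). In these limma tests 0 of the 9 had an unadjusted p under 0.05 in any of the 3, against 2.27%, 12.7% and 7.84% of all genes. By edgeR 0 of the 9 were called, and by DESeq2 0 of 8, since DESeq2 gave no adjusted p for Smad7. The median of the 9 log2 differences was −0.09 for exercise at ZT3, 0.15 for exercise at ZT15 and 0.20 for the interaction, where that of all genes was 0.01, 0.00 and 0.00. Above 0 were 4, 6 and 6 of the 9. Exercise averaged over times also called 0 of the 10 by limma and edgeR, while DESeq2 called Lrrc32 (adjusted p = 0.0380). By limma 2 of the 10 (Lrrc32 and Skil) had an unadjusted p under 0.05, where 7.74% of all genes did. The p-values of Lrrc32 are not independent of its choice.

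The 3 ligand genes differ in where they are held and by what they are freed, but all encode a TGF-beta that signals through the same receptors. Tgfb1, the ligand usually docked on Lrrc32, was at 20.8 ± 10.3 in ZT3 RUN and 15.3 ± 1.01 in ZT15 RUN, with ZT3 SED at 19.1 ± 3.33 and ZT15 SED at 19.2 ± 8.85 (SD, n = 6 each). Its exercise difference was 0.03 ± 0.23 at ZT3 and −0.22 ± 0.23 at ZT15 (adjusted p = 0.997 and 0.751). The 2 wide groups are those that hold libraries rich in Cd79a. In ZT3_RUN_4, ZT15_SED_5 and ZT15_SED_3 Tgfb1 was at 40.6, 35.7 and 22.3, which ranked 1, 2 and 4 of 24, and in the others at 11.7 to 23.1. Without these 3 the exercise difference was −0.18 at ZT3 and 0.09 at ZT15, with adjusted p of 1.00 and 0.914.

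Tgfb3 had the narrowest range of the ligands, with the highest library at 2.67 times the lowest, against 8.86 times for Tgfb2, and with Tgfb1 between these. After exercise at ZT15 it was at 22.9, 27.0, 21.6, 23.7, 22.0 and 22.9, a group SD of 1.95, and 4 of these 6 lay above the highest sham library of that time (22.0). Its exercise difference at ZT15 was 0.29 ± 0.18 (adjusted p = 0.514), and ZT15 minus ZT3 after exercise was 0.38 ± 0.18 (adjusted p = 0.225). Neither passed. The lowest sham library at ZT15, at 10.1, was ZT15_SED_5, 1 of the 3 rich in Cd79a, and without it the exercise difference was 0.12. Tgfb2 was the scarcest. Its group means lay between 4.72 ± 2.66 in ZT15 SED and 5.95 ± 3.34 in ZT15 RUN, no neighbours differed beyond their spread, and single libraries ran from 1.30 to 11.5.

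ZT15 against ZT3, averaged over treatments, gave the only call among the 10 genes in the 7 comparisons. Ltbp2, a fibrillin-binding LTBP that, unlike the others, does not bind latent TGF-beta, rose by 0.36 ± 0.11 (adjusted p = 0.0473, where 7.37% of all genes were called, 688 higher and 509 lower). It was at 64.5, 58.4, 75.0, 59.2, 92.4 and 63.3 in ZT3 SED and at 86.7, 42.9, 59.2, 68.6, 62.8 and 68.5 in ZT3 RUN. At ZT15 it was at 93.2, 67.0, 85.2, 80.6, 108 and 89.9 after sham and at 82.0, 64.4, 71.2, 99.8, 75.4 and 116 after exercise. The ranges overlapped in both treatments: in each, 2 of 6 ZT15 libraries lay above the highest ZT3 library. By treatment the difference was 0.34 ± 0.16 after sham (adjusted p = 0.376, 1.18% of all genes called) and 0.39 ± 0.16 after exercise (adjusted p = 0.166, 4.19% called).

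The size of this difference moved little, from 0.30 to 0.41 over the alternatives, but the call rests on the setting. Adjusted p for Ltbp2 was 0.0502 with edgeR, 0.0225 with DESeq2, 0.0825 without the libraries rich in Cd79a and 0.180 without those rich in Ucp1 and Myh4, and it was called in 6 of the 24 fits that each left out 1 library, with adjusted p from 0.0226 without ZT3_SED_5 to 0.0878 without ZT15_RUN_4. The call was kept without ZT3_SED_5, ZT3_RUN_1, ZT3_RUN_4, ZT15_SED_2, ZT15_RUN_2 or ZT15_RUN_3, and was lost on leaving out any other library. Of 8 smooth muscle and pericyte genes 6 were above 0 at ZT15 and 2 were called (median 0.21), with sums of 493 to 831 at ZT3 and 639 to 988 at ZT15. Of 8 fibroblast genes 1 was above 0 (median −0.48), and of 7 macrophage genes 0 were above 0 and 3 were called (median −0.55). Their part in the Ltbp2 difference was not tested.

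Ltbp4, which binds latent TGF-beta1 and takes part in elastic fibre assembly, had nearly the same difference. Averaged over treatments it was 0.33 ± 0.10 (adjusted p = 0.0565), with 0.0392 by DESeq2, and it was called in 7 of the 24 fits that left out 1 library (lowest adjusted p 0.0252, without ZT3_SED_6). After exercise Ltbp4 was at 70.0, 56.2, 86.7, 58.2, 80.8 and 50.9 at ZT3 and at 87.7, 78.5, 88.9, 100.4, 97.0 and 104 at ZT15. Here 5 of 6 ZT15 libraries lay above the highest at ZT3. That difference was 0.48 ± 0.15 (adjusted p = 0.0662, 0.0314 by DESeq2, and 0.0358 without ZT3_RUN_3; it also passed without ZT3_RUN_5 or ZT15_RUN_2), and after sham it was 0.18 ± 0.15 (adjusted p = 0.691). The difference between these is the interaction, 0.30 ± 0.21 (adjusted p = 0.627), so the treatments were not shown to differ. At ZT3 the mean after exercise (67.1 ± 14.4) was below that after sham (82.4 ± 18.9), a difference of −0.29 ± 0.15 (adjusted p = 0.989).

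Ltbp3, the most abundant of the LTBPs here and a carrier of latent TGF-beta1, was at 200.3 ± 43.6 in ZT3 SED, 156 ± 50.5 in ZT3 RUN, 190.2 ± 44.7 in ZT15 SED and 211 ± 48.0 in ZT15 RUN (SD, n = 6 each). Its interaction was 0.55 ± 0.29 (adjusted p = 0.583), and 0.33 without the libraries rich in Cd79a. Exercise at ZT3 gave −0.40 ± 0.20 (adjusted p = 0.989), and 3 of 6 exercised libraries lay below the lowest sham library. The lowest was ZT3_RUN_4 at 87.3, the library richest in Cd79a, and without it the difference was −0.24.

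**Figure D3:**
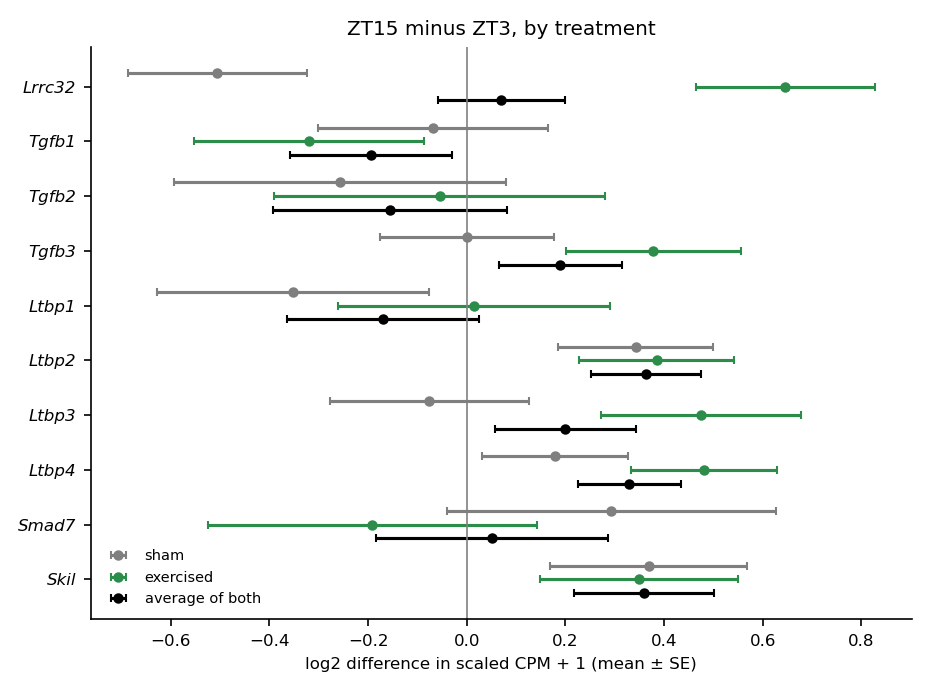
ZT15 minus ZT3 in log2 of the level + 1, mean ± SE from limma, after sham, after exercise and as their average, for the 10 genes. The averages of Ltbp2 (0.36 ± 0.11), Skil (0.36 ± 0.14) and Ltbp4 (0.33 ± 0.10) lie highest, and Lrrc32 lies below 0 after sham and above 0 after exercise.

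Ltbp1, the founding member of the family and a carrier of all latent forms, did not differ between the groups beyond its spread: its means ran from 60.6 ± 20.6 in ZT15 SED to 74.9 ± 17.4 in ZT3 SED. Its libraries instead differed by the number in their titles, a pattern noticed after the values were seen. Titles run from 1 to 24, each run of 8 holds 2 libraries of every group, and their meaning is not given in the labels. Without the libraries rich in Cd79a, Ltbp1 was at 35.6 to 62.2 in titles 1 to 8 (n = 6), at 62.3 to 121 in titles 9 to 16 (n = 8) and at 70.3 to 100.5 in titles 17 to 24 (n = 7). The first run lay below the others by little, 62.2 against 62.3. With all 24 libraries the ranges overlapped, since ZT15_SED_3, in titles 17 to 24, was at 61.5. The share of all genes with such a gap was not computed.

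In a limma fit with groups and runs, titles 1 to 8 were lower in Ltbp1 by −0.71 ± 0.12 (adjusted p = 0.00643, where 3.75% of all genes were called, and 5.65e-04 with all 24 libraries). Tgfb2 had a difference of −0.73 ± 0.21 (adjusted p = 0.0605), which was −0.81 ± 0.19 (adjusted p = 0.0148) with all 24, a fit in which 6.82% of all genes were called. The other 8 genes were not called in the fit over 21 libraries. The split of titles 1 to 8 against the rest was chosen after the values were seen. Its p-values are thus not independent of that choice. In the same fit an F test over all 3 runs, which does not use this split, called 204 of 16233 genes. It gave adjusted p = 0.0219 for Ltbp1 and 0.152 for Tgfb2. Reads and marker sums were taken over all 24 libraries, 8 to a run. The first run had fewer reads in listed genes (18.5 to 31.0 M, against 23.5 to 34.7 M in the others). It also had a lower median sum of muscle markers (361, against 7663 and 2355) and of macrophage markers (895, against 1323 and 1304). The median sum was also lower for fibroblast markers (7828, against 9405 and 9234) and platelet markers (26.6, against 36.4 and 33.7), and higher for thermogenic fat markers (233, against 180.3 and 92.7). It was higher as well for endothelial markers (1167, against 1032 and 1077) and for smooth muscle and pericyte markers (805, against 681 and 742). These sums of the first run include ZT3_RUN_4 and ZT15_SED_5, which the fit over 21 libraries left out. The ranges of the runs overlapped for each of these lists, and the part of depth and tissue content in the difference was not tested. With the runs as a term in the model, Ltbp2 and Ltbp4 were both called for ZT15 minus ZT3 averaged over treatments (adjusted p = 0.0370 and 0.0414).

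The 250 bases before the start of Ltbp1 and Tgfb2, and the farther 209 of these bases for Ltbp2, are shown here because the levels of these 3 genes moved together or in opposite directions between libraries. They are RefSeq promoter windows of build GRCm38.p6, found for 6 of the 10 genes, and are printed 5′ to 3′ on the strand of the gene with matches to searched motifs in capitals. The Ltbp1 window at chr17:75005279-75005528 (plus strand) holds a CRE, TGACGTCA, 73 bases before the start. No Ltbp1 transcript of GENCODE M21 held the last 20 of the 50 bases after that start, so this annotation does not bear the start out. The second Ltbp1 window, at chr17:75178531-75178780 (plus strand), holds the SMAD-binding element CAGACA on the other strand, read here as TGTCTG, at 149 and 98 bases before the start. The Ltbp2 window holds none of the motifs searched, and is printed at chr12:84876533-84876741 (minus strand), without 41 bases that an annotated exon of Ltbp2 covers. The Tgfb2 window at chr1:186705990-186706239 (minus strand) holds CAGACA at 204 and the E-box CACGTG at 51 bases before the start. In the GENCODE M21 annotation, an exon of the antisense transcript D030025P21Rik covers the whole Ltbp2 window, and an exon of Gm29491 covers 167 bases of the Tgfb2 window.
Ltbp1, first window: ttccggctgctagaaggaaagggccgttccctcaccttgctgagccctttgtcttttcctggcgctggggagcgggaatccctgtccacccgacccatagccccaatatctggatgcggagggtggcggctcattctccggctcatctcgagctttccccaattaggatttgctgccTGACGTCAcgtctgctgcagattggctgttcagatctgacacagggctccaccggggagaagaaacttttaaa
Ltbp1, second window: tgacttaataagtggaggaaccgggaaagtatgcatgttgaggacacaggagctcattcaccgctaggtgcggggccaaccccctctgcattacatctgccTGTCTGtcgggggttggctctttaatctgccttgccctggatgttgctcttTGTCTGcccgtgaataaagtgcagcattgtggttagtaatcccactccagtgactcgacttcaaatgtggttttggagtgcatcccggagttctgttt
Ltbp2: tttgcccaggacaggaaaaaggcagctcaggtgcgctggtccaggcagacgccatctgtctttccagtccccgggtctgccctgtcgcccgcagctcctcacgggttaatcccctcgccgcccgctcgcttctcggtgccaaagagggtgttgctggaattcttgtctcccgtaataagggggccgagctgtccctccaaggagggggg
Tgfb2: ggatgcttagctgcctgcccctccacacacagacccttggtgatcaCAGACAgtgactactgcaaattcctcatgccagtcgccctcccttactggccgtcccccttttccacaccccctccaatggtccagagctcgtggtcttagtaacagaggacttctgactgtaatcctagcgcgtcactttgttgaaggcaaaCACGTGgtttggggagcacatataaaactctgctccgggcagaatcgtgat

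Of 32851 RefSeq promoter windows of this kind, each 300 bases long (250 before and 50 after the start), 1.79% hold a CRE, 21.0% hold CAGACA and 7.15% hold CACGTG on either strand. Also searched were the palindromic SMAD element GTCTAGAC (in 0.213% of windows), AP-1 as TGANTCA (7.81%), the D-box TTATGTAA (0.938%) and the glucocorticoid element by name (0.00913%). Among windows of the 10 genes, AP-1 and CAGACA were found in that of Ltbp3, both at its start, and those of Ltbp4 and Tgfb1 held none of the 7. A match is a description of letters and not of a bound site.

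Smad7, the inhibitory SMAD that blocks the type I receptor, and Skil (SnoN), a repressor of SMAD-driven transcription, are both induced by the pathway they restrain. Both were highest in 2 of the 3 libraries rich in Cd79a. Smad7 reached 29.8 in ZT3_RUN_4 and 24.9 in ZT15_SED_5, was at 9.71 in ZT15_SED_3 and lay at 4.24 to 10.2 in the other 21. Skil was at 121, 114 and 67.2 in the same 3 and at 41.5 to 95.8 in the others. With Tgfb1, these genes gave ranks of 1 and 2 of 24 in the same 2 libraries. In ZT15_SED_5 the opposite end was also reached, since Tgfb2 (1.30), Tgfb3 (10.1) and Ltbp1 (28.2) were at their lowest of 24 there. The summed level of the 12 lymphocyte markers was 1279 in ZT3_RUN_4 and 913 in ZT15_SED_5, and the part of these cells in the levels was not tested.

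**Figure D4:**
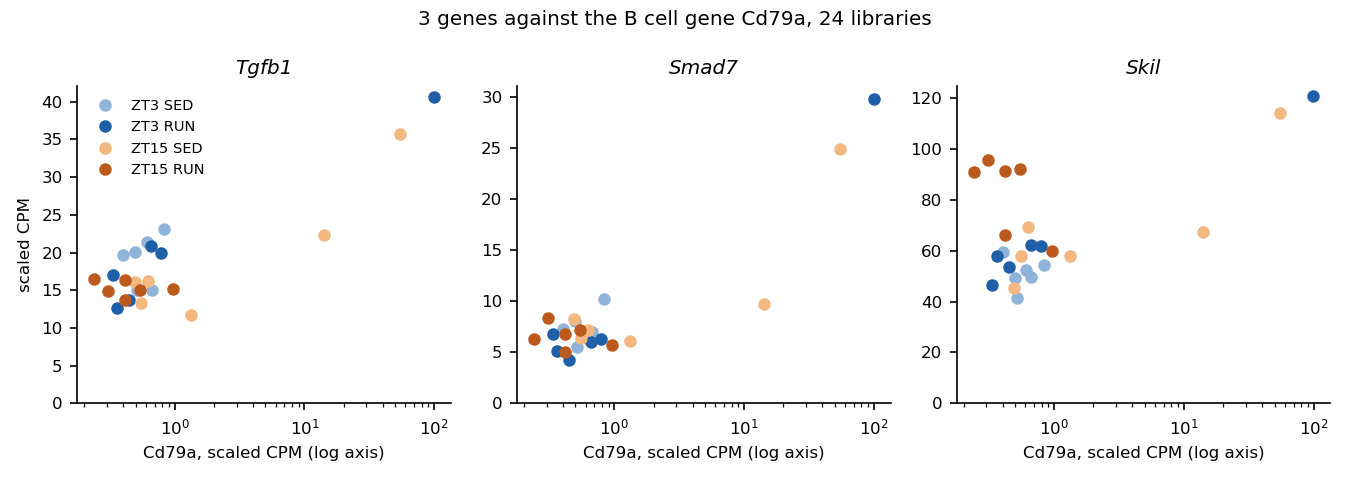
Levels of Tgfb1, Smad7 and Skil (scaled CPM, linear axis) against Cd79a (same unit, log axis) in the 24 libraries, by group. The 2 libraries with the most Cd79a (54.6 and 99.2) have the highest level of each gene.

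The group values of Smad7 and Skil depended on these libraries. The interaction of Smad7 was −0.48 with all libraries and 0.24 without the 3, that of Tgfb1 −0.25 and 0.27, and that of Skil −0.02 and 0.37 (adjusted p from 0.728 to 1.00). On recovered reads the interaction was −1.06 for Smad7 by edgeR (adjusted p = 0.443) and −1.05 by DESeq2, and −0.46 for Tgfb1 by both. Skil at ZT15 was at 58.0, 57.9, 67.2, 69.5, 114 and 45.5 after sham and at 92.2, 60.1, 66.2, 91.2, 90.9 and 95.8 after exercise, so that 4 exercised libraries stood together at 90.9 to 95.8 and the 1 sham library above them was ZT15_SED_5. Its exercise difference at ZT15 was 0.30 ± 0.20 (adjusted p = 0.557), and 0.50 without the 3 (adjusted p = 0.110).

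By time, Skil had a difference of 0.36 ± 0.14 averaged over treatments (adjusted p = 0.132). Without the 3 libraries it was 0.35 and passed (adjusted p = 0.0226), as did ZT15 minus ZT3 after exercise, 0.35 with all libraries (adjusted p = 0.326) and 0.53 without (adjusted p = 0.0240). With all libraries 7.37% and 4.19% of all genes were called in these contrasts, and the shares without the 3 are not given here. Without ZT3_RUN_4 alone the averaged adjusted p was 0.0167. ZT15 minus ZT3 in Smad7 was 0.05 ± 0.24 averaged over treatments (adjusted p = 0.936).

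Beyond the 10 genes, 50 further genes of the pathway were listed, all of them in the table: 5 receptors, 7 SMADs, 20 genes of activation and anchoring, 8 repressors and turnover genes and 10 targets. Exercise at ZT15 called 1 of the 50, higher, where 0.641% of all genes were called, and 33 were above 0 (median 0.10). An unadjusted p under 0.05 was found for 10 of the 50 and for 12.7% of all genes. That gene was Thbs1, thrombospondin 1, which frees TGF-beta from its latent complex. Thbs1 ran from 24.2 to 39.8 (median 33.1) after sham and from 47.0 to 368.5 (median 149.8) after exercise. These ranges did not overlap, as was so for 1.75% of all genes. The difference of Thbs1 was 2.10 ± 0.43 (adjusted p = 0.0237). The call depends on the libraries used: without those rich in Ucp1 and Myh4 no gene passed in this contrast, Thbs1 included.

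Exercise at ZT3 called 0 of the 50 (19 above 0), with the smallest p for Klf10 (−0.57 ± 0.18), Id3 (−0.42 ± 0.18) and Bgn (−0.31 ± 0.15), each at adjusted p = 0.989. The interaction also called 0, with the smallest p for Thbs1 (2.16 ± 0.60), Id1 (0.98 ± 0.38) and Smad6 (0.61 ± 0.25) at adjusted p = 0.583, and 38 of 50 were above 0. Exercise averaged over times called 0, with the smallest p for Id3 (−0.45 ± 0.13, adjusted p = 0.158) and Thbs1 (1.02 ± 0.30, adjusted p = 0.181). By limma 3, 6 and 7 of the 50 had an unadjusted p under 0.05 in these 3, where 2.27%, 7.84% and 7.74% of all genes did.

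By time, several genes of activation and anchoring fell while Ltbp2 rose. ZT15 minus ZT3 averaged over treatments called 8 of the 50, 2 higher and 6 lower, where 7.37% of all genes were called, 688 higher and 509 lower. Of the 20 genes of activation and anchoring 1 was called higher and 4 lower. Fbn1, the fibrillin that LTBPs bind, fell by 1.42 ± 0.27 on the log2 scale (adjusted p = 0.00179), from means of 624 ± 193 and 633 ± 243 at ZT3 to 224 ± 98.9 and 269 ± 135 at ZT15. The membrane protease Mmp14 fell by 0.78 ± 0.13 (adjusted p = 6.18e-04) and the gelatinase Mmp9 fell by 1.20 ± 0.25 (adjusted p = 0.00389). Both proteases can release latent TGF-beta. Emilin1, an elastic fibre protein that limits TGF-beta processing, fell by 0.29 ± 0.07, the ubiquitin ligase Smurf1 fell by 0.28 ± 0.07 and, outside the 6 of smallest p, the inhibitory Smad6 fell by 0.42 ± 0.12 (adjusted p = 0.0162, 0.0152 and 0.0410). The crosslinker Tgm2, which couples LTBPs to the matrix, rose by 0.36 ± 0.09 (adjusted p = 0.0120) and the target Tsc22d1, also outside those 6, by 0.28 ± 0.08 (adjusted p = 0.0331). The 8 fibroblast markers had a median of −0.48 in the same contrast, and their part was not tested.

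By treatment, ZT15 minus ZT3 called 3 of the 50 after sham (1.18% of all genes), all lower: Fbn1 (−1.56 ± 0.38), Mmp14 (−0.92 ± 0.19) and Smad6 (−0.72 ± 0.18). After exercise it called 2 (4.19% of all genes), both higher: Tgm2 (0.43 ± 0.12) and Tsc22d1 (0.41 ± 0.11). Fbn1 after exercise was at −1.27 ± 0.38 (adjusted p = 0.0580), so a call after sham alone does not show that the treatments differ.

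The 5 genes whose levels followed Lrrc32 most closely over the 24 libraries, among 8021 genes above the median level, were Sema4c (Pearson r = 0.90), Thbs1 (0.85), Ets2 (0.83), Irs2 (0.83) and Vgll4 (0.82). These are descriptions with no test, and the libraries share the groups that set Lrrc32 apart. Over the 21 libraries not rich in Cd79a, r was 0.93, 0.84, 0.85, 0.83 and 0.81. Sema4c, a semaphorin, was at 12.4 ± 1.85 in ZT15 SED and 21.1 ± 6.09 in ZT15 RUN, with 15.6 ± 2.58 and 16.3 ± 2.24 at ZT3, the same order of groups as Lrrc32. Irs2, the insulin receptor substrate, was at 70.2 ± 13.4 in ZT15 SED and 220.4 ± 91.7 in ZT15 RUN. Exercise differences at ZT15 were 0.69 ± 0.15 for Sema4c, 1.53 ± 0.28 for Irs2, 0.70 ± 0.15 for Vgll4 and 0.50 ± 0.14 for Ets2.

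Within groups, some pairs of the 10 genes varied together or in opposite directions, and most pairs did not pass. How often pairs drawn from all genes would pass was not tested. Deviations from the group means of log2 level were correlated for all 45 pairs over the 21 libraries not rich in Cd79a, with two-sided p from 100000 permutations within groups and adjustment over the 45. These p-values come from deviations that still hold the shifts between runs of titles, so r within the runs is given beside each, and r with the run means also removed, which was not tested. By Pearson's r 14 pairs passed, 8 positive and 6 negative, of which 8 kept 1 sign in all 3 runs of titles and 11 also passed by Spearman's rho. Ltbp1 and Ltbp2 ran in opposite directions, with r = −0.67 (permutation adjusted p = 0.0130) and rho = −0.65 (0.0264). Within the runs r was −0.82, −0.73 and −0.70. It was −0.72 with run means removed and −0.53 without the 2 libraries farthest out. A library with more RNA of 1 of these genes thus tended to have less of the other within each run.

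The choice of Lrrc32 rested in part on the spread within groups that these correlations use. The p-values of pairs with Lrrc32 are thus not independent of that choice. Lrrc32 ran with Tgfb1, its usual ligand, at r = 0.62 (permutation adjusted p = 0.0099) and rho = 0.72 (0.0135). Within the runs r was 0.44, 0.69 and 0.51. It was 0.52 with run means removed and 0.64 without the 2 farthest libraries. Lrrc32 also ran with Ltbp4 (r = 0.64, rho = 0.66, permutation adjusted p = 0.0099 and 0.0213), but within the runs r was 0.10, 0.89 and 0.42, so the first run shows little of it. Ltbp4 and Smad7 gave r = 0.69 and rho = 0.65 (permutation adjusted p = 0.0130 and 0.0236), with 0.63, 0.14 and 0.93 within the runs. With run means removed r was 0.47 for Lrrc32 with Ltbp4 and 0.61 for Ltbp4 with Smad7, and without the 2 farthest libraries 0.69 and 0.67.

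Tgfb2 and Ltbp1 had the highest r of the 45, 0.76, with rho = 0.76 (permutation adjusted p = 0.0099 and 0.0160). Within the runs r was −0.08, 0.82 and 0.90, so r was near 0 among the 6 libraries of the first run, where both genes were low. Tgfb2 and Ltbp3 gave r = −0.68 and rho = −0.67 (permutation adjusted p = 0.0130 and 0.0232), negative within each run at −0.91, −0.27 and −0.49. Ltbp3 and Ltbp4 gave r = 0.70 and rho = 0.68 (permutation adjusted p = 0.0136 and 0.0236), with −0.30, 0.94 and 0.54 within the runs. With run means removed these were 0.58, −0.50 and 0.54, and without the 2 farthest libraries 0.72, −0.53 and 0.71. The libraries of a group also differ in tissue content, and its part in these relations was not tested.

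**Figure D5:**
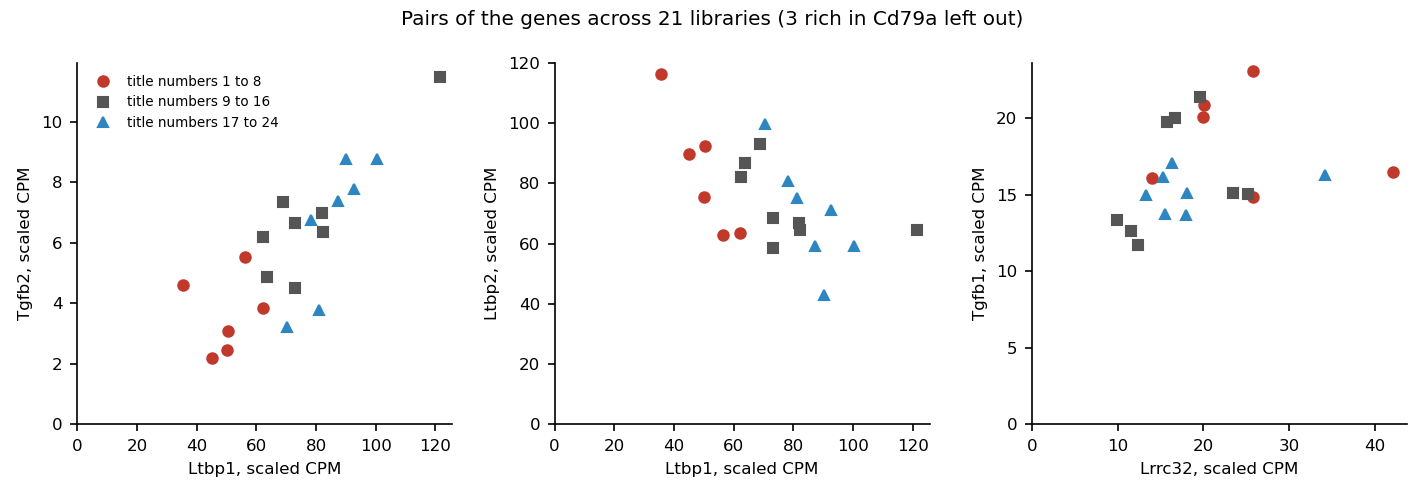
Levels (scaled CPM, linear axes) of Tgfb2 against Ltbp1, Ltbp2 against Ltbp1 and Tgfb1 against Lrrc32 in the 21 libraries not rich in Cd79a, marked by run of title numbers. Libraries with titles 1 to 8 lie at Ltbp1 of 62.2 or below, and Ltbp2 falls with Ltbp1 within each run.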

How the data were processed

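Total RNA of 24 libraries was sequenced after removal of ribosomal RNA with a stranded kit, per the labels' protocols. Per the submitters' processing notes, which give neither role nor order, the tools included limma 3.48.3, featureCounts, STAR and Subread 1.6.2. Build, annotation and strand setting: not given in the sources used here. The authors deposited 1 column of normalized signal per library. In every column 100% of values were whole multiples of 1 step (tolerance 0.01 of a read). The steps were proportional to those of edgeR's TMM scaling. The signal is thus a TMM-scaled CPM, up to a factor common to all libraries.

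Values were tested as log2(signal + 1), which understates changes of low genes, with limma 3.58.1 in R 4.3.3 (group means over 24 libraries, intensity trend, Benjamini-Hochberg over 16233 genes, threshold 0.05). Adjusted p-values come from this test where no other tool is named. Recovered reads were also tested with edgeR 4.0.16 and DESeq2 1.42.0. Exon lengths are from GENCODE M21. The test was checked on simulated data.

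All 10 genes are named in every comparison. From the list of 50 pathway genes up to 6 past the threshold by smallest p were named, or, with none past it, the 3 of smallest p, less those not reported here, and others are marked. The 10 genes, the lists and the markers were chosen with earlier results of these data known, and no list was tested as a set. Alternatives covered scaling, filters, pseudocount, model, title numbers and leaving out libraries. Correlations among the genes, the contrast of title numbers and the E-box and D-box searches were added after seeing the data.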

Additional observations from a re-analysis of the deposited data

Results flagged for a closer look

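In 40 groups of 6 libraries (10 genes in 4 groups), the gap between an extreme library and its nearest neighbour was compared with the range of the group. Chance flags about 1 in 20 independent groups, and 6 were found here. The 10 genes share the same libraries and all 6 flags lie in 2 of them. The flags are thus not independent, and their number cannot be set against that rate. ZT3_RUN_4 was the highest of its group for Tgfb1, at 40.6 where the next library was at 20.9, for Smad7, at 29.8 where the next was at 6.79, and for Skil, at 121 where the next was at 62.1. ZT15_SED_5 was the highest of its group for Smad7, at 24.9 with the next at 9.71, and for Skil, at 114 with the next at 69.5, and it was the lowest for Tgfb3, at 10.1 with the next at 19.9. These 2 libraries also had the highest levels of the B cell gene Cd79a, 99.2 and 54.6.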

How the results depend on the processing

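Among the 10 genes, no difference that passed the threshold changed its sign in any alternative run. For ZT15 minus ZT3 averaged over treatments, where 1 gene (Ltbp2) was called, 0 were called with edgeR, with quantile normalization, with no intensity trend or without the libraries rich in Ucp1 and Myh4, and 2 (Ltbp2 and Ltbp4) with DESeq2, without the lowest 25% of genes or with blocks of 8 title numbers. Leaving out each library gave 0 to 2. Without the libraries rich in Cd79a the 1 call was Skil in place of Ltbp2. For ZT15 minus ZT3 after exercise, with 0 called, 1 was called with DESeq2 or centring on the library median (Ltbp4) and without the libraries rich in Cd79a (Skil), and 0 to 1 on leaving out each library. Exercise averaged over times, with 0 called, gave 1 (Lrrc32) with DESeq2 (adjusted p = 0.0380) and 0 to 1 on leaving out each library (0.0424 without ZT15_RUN_3), where neither fit is orthogonal to the interaction that chose Lrrc32. Without the libraries rich in Cd79a the interactions of Tgfb1, Smad7 and Skil moved to 0.27, 0.24 and 0.37. The causes were not tested.

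Counts over all genes moved more. Exercise at ZT15 called 104 genes, 75.0% higher, against 561 with DESeq2, 155 (89.7% higher) after centring on the library median, 72 (93.1% higher) with quantile normalization, 22 without the libraries rich in Cd79a, 0 without those rich in Ucp1 and Myh4, 199 without ZT3_SED_1 and ZT3_RUN_1 and 16 to 293 on leaving out each library. The interaction called 0 genes and 239 with DESeq2, exercise at ZT3 0 and 19 without ZT3_SED_1 and ZT3_RUN_1, and exercise averaged over times 23 against 193 with DESeq2, 15 without the lowest 25% of genes, 8 with quantile normalization, 1 without the libraries rich in Cd79a, 0 without those rich in Ucp1 and Myh4, 266 without ZT3_SED_1 and ZT3_RUN_1 and 0 to 165 on leaving out each library. ZT15 minus ZT3 called 1197 genes averaged over treatments (658 without the libraries rich in Ucp1 and Myh4), 191 after sham (548 with DESeq2, 287 with blocks of 8 title numbers, 130 to 388 on leaving out each library) and 680 after exercise (61.0% higher, against 1590 with DESeq2, 426 with quantile normalization, 109 with only the groups compared, 218 without the libraries rich in Ucp1 and Myh4, 434 without ZT3_SED_1 and ZT3_RUN_1, 330 to 1004 on leaving out each library and 715, 75.9% higher, after centring).

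Replicate numbers follow the order of the records. Neighbouring title numbers were tried as a replicate block, since each such pair holds an exercised and a sham library of the same time. Deviations of 12 such pairs correlated at −0.44 to 0.78, 7 of them above 0.1. The libraries also differ in tissue content, so these correlations cannot decide whether the numbers pair the libraries. With this replicate block exercise at ZT15 called 19 genes and exercise averaged over times 0, with 0 of the genes tested here in each, and Lrrc32 had 0.43 in the latter (adjusted p = 0.218). Tgfb2, with 37 to 358 reads in a library, is the gene whose precision depth limits most.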
